A study of Mus musculus with 12 samples.

Results

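The interaction of genotype and docetaxel was examined gene by gene in 4T1 cells, a mouse mammary carcinoma line grown from a BALB/c tumour. For each gene it is the docetaxel change in cells labelled integrin beta 3 knockout minus the docetaxel change in wild-type cells, on the log2 scale. A positive value means that the gene moved further up, or less far down, in the knockout-labelled cells. All 12 libraries of the study and all 40406 gene rows of its count table entered, and 15538 genes had enough counts to be tested. The rule uses no measured difference between groups.

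The 4 groups held 3 libraries each: wild-type cells with the solvent DMSO, wild-type cells with docetaxel, knockout-labelled cells with DMSO and knockout-labelled cells with docetaxel. Drug was present at 10 nM for 24 h, and cells then stayed 48 h in fresh medium without drug before RNA was taken. All cultures grew on dishes coated with poly-L-lysine, and the labels call the 3 cultures of a group biological replicates. How the knockout was made and whether the line is 1 clone are unknown (not given in the sources used here).

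Itgb3, which encodes integrin beta 3, was measured first as a check of the genotype label. Its level in CPM (read counts relative to the TMM-scaled library size) was 71.4, 60.1 and 66.1 in wild-type DMSO cultures and 62.4, 66.7 and 64.96 in knockout-labelled DMSO cultures. After docetaxel it was 80.6, 88.7 and 79.98 in wild-type and 59.3, 64.6 and 63.4 in knockout-labelled cultures. The transcript was thus present at similar levels under both genotype labels in DMSO, which says nothing about the protein. The free-text description of wild-type DMSO library 1 names knockout cells, against its title and genotype label, so results are also given without it. The epithelial marker Cldn7 was at 9.32 CPM in that library and at 8.40 and 9.15 CPM in wild-type DMSO libraries 2 and 3. In knockout-labelled DMSO libraries Cldn7 was at 0.128, 0.0651 and 0.0294 CPM. Nlrc5 was at 13.8 CPM in library 1 and at 16.9 and 16.04 CPM in wild-type DMSO libraries 2 and 3. In knockout-labelled DMSO libraries Nlrc5 was at 1.82, 2.48 and 2.41 CPM. Ltf was at 3.79 CPM in library 1, and at 1.79 and 2.06 CPM in libraries 2 and 3. In knockout-labelled DMSO libraries Ltf was at 18.1, 19.6 and 16.9 CPM. Both genes were called with library 1 counted as wild type. Rrm2, described below, lay within the knockout-labelled DMSO range in library 1. Which label is right was not tested.

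Docetaxel is a taxane that binds beta-tubulin, stabilises microtubules and disturbs mitosis. Cells that leave mitosis with missegregated chromosomes can form micronuclei, whose DNA is known to be sensed by cGAS and STING, and type I interferon then induces a broad antiviral program in the same and in neighbouring cells. ATF4 is a transcription factor of the integrated stress response that induces amino acid synthesis and transport genes when amino acids are short or the endoplasmic reticulum is stressed. Integrin beta 3 pairs with integrin alpha v or alpha IIb and binds matrix proteins such as vitronectin and fibrinogen.

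Libraries held 28729118 to 40801679 counts. The SE of the interaction had a median of 0.206 over all tested genes and 0.164 over the 10466 genes with a highest group mean of at least 5 CPM. Epithelial markers of the line (8 of 8 detected) summed to 2830 to 4100 CPM per library. Of these 8, Cldn7 was at 7.12 to 9.32 CPM in wild-type libraries and only 0.029 to 0.19 CPM in knockout-labelled ones. The 6 endothelial markers summed to under 1 CPM in every library, and the pan-leukocyte marker Ptprc ranged from 0 to 0.252 CPM. The 16 leukocyte markers summed to 35.4 to 54 CPM in wild-type DMSO cultures and 32.9 to 45.2 CPM in knockout-labelled ones, and to 55.4 to 66.5 and 57.8 to 67.4 CPM after docetaxel. Cd14 and Cd68 held most of this sum, and its part in the results was not tested. The 8 fibroblast markers summed to 28.9 to 30.8 and 20.5 to 22.1 CPM in wild-type DMSO and docetaxel cultures, and to 15.1 to 18.8 and 12.7 to 15.7 CPM in the knockout-labelled ones.

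Docetaxel affected the 2 genotypes differently at 17 genes (edgeR quasi-likelihood test, Benjamini-Hochberg adjusted p under 0.05), which is 0.109% of the genes tested. The interaction was positive for 14 of them (0.0901%) and negative for 3 (0.0193%). With an adjusted p under 0.1, 40 genes would be called (0.257%). At an unadjusted p under 0.05 there were 949 positive genes (6.11%) and 765 negative genes (4.92%), and the median interaction of all tested genes was -0.00166. Of the 14 positive genes, 5 code for interferon-inducible proteins (Oas2, Lgals9, Ifi27, Sp100 and Nlrc5), 4 belong to the ATF4 and amino acid group (Asns, Atf4, Slc1a4 and Slc7a5), 4 are short noncoding features (Gm23935, Gm24270, Gm24245 and Gm25911) and 1 is Ppp1r14a. The 3 negative genes were Clu, Ltf and Nlrp10.

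The shapes of these 17 interactions differed. The 4 ATF4-group genes fell in wild-type cells and were not called in knockout-labelled cells. The 4 noncoding features and Ppp1r14a fell in wild-type cells and rose in knockout-labelled cells. Oas2, Lgals9, Sp100 and Nlrc5 rose in both genotypes, further on the log2 scale in knockout-labelled cells, and Ifi27 rose in knockout-labelled cells and was not called in wild-type cells. In all 17 genes the genotypes differed less in size after docetaxel than in DMSO, which was also so for 61.5% of all tested genes. For comparison, docetaxel called 4406 genes in wild-type cells (28.4%) and 2499 in knockout-labelled cells (16.1%), while the genotypes differed at 2454 genes in DMSO (15.8%; 6.6% higher and 9.2% lower in knockout-labelled cells) and at 915 after docetaxel (5.89%; 2.5% and 3.39%).

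The count of 17 depended on single libraries and settings more than the values did. Without wild-type DMSO library 1, the library whose labels conflict, 431 genes were called (2.7% of 15969 tested), 210 positive and 221 negative, and the 17 were among them. Without any one of the other libraries the count was between 2 (without knockout-labelled DMSO library 3 or docetaxel library 3) and 45 (without wild-type DMSO library 3). DESeq2 called 154 genes (1.09%), including all 17, and limma-voom called 8 of the 17 (0.0515%) and no others. The sign of all 17 was the same in each alternative in which the gene was tested. On the scale of CPM differences 15 of 17 kept their sign, and Nlrc5 and Ltf, described below, did not.

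The gene with the lowest adjusted p was Ifi27, an interferon-inducible protein of the mitochondrial and nuclear membranes. Its level was 155, 155 and 173 CPM in wild-type DMSO cultures and 138, 144 and 140.45 CPM after docetaxel. In knockout-labelled cultures it was 73.9, 90.6 and 78.6 CPM in DMSO and 181, 197 and 185 CPM after docetaxel. The knockout-labelled DMSO cultures were the lowest of the 4 groups and the docetaxel-treated ones the highest, with no overlap between any 2 groups. The interaction was 1.4026 ± 0.12 (log2 ± SE, n = 3 per group, edgeR adjusted p = 0.000235). Docetaxel changed it by 1.21 in knockout-labelled cells, and its value in wild-type cells was -0.19 (edgeR adjusted p = 0.109). Ifi27 stayed called when each of the 12 libraries was left out in turn, with an interaction of 1.34 to 1.49.

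Oas2 makes 2'-5'-linked oligoadenylates that activate the nuclease RNase L. It stood at 14.4, 27.8 and 27.7 CPM in wild-type DMSO cultures and 59.5, 83.5 and 64.2 CPM after docetaxel. In knockout-labelled cultures it went from 4.96, 7.23 and 6.29 CPM to 53.8, 65.97 and 67.7 CPM. The DMSO groups did not overlap, the knockout-labelled one being lower, while the docetaxel groups overlapped. Oas2 rose by 1.57 log2 in wild-type cells and by 3.34 log2 in knockout-labelled cells, an interaction of 1.78 ± 0.31 (edgeR adjusted p = 0.0484).

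Lgals9 encodes galectin-9, a sugar-binding protein that interferons induce, and it was not on the interferon list used below. It was measured at 119, 193 and 149 CPM and 219, 274 and 241 CPM in wild-type cultures in DMSO and after docetaxel. The knockout-labelled cultures had 27.8, 39.7 and 36.2 CPM and 153, 166 and 177 CPM. Knockout-labelled DMSO cultures were below every other culture, and after docetaxel they lay within the range of the wild-type DMSO cultures. The interaction was 1.59 ± 0.23 (edgeR adjusted p = 0.0165), from changes of 0.67 and 2.26 log2.

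Sp100 is a core protein of PML nuclear bodies. It rose from 33.5, 45.8 and 42.4 CPM to 75.02, 97.04 and 78.8 CPM in wild-type cells and from 10.8, 14.1 and 13.9 CPM to 56.3, 67.3 and 62.3 CPM in knockout-labelled cells. The genotype difference narrowed from -1.65 log2 in DMSO to -0.43 log2 after docetaxel, and the interaction was 1.22 ± 0.20 (edgeR adjusted p = 0.0285). Wild-type cultures remained above the knockout-labelled ones in both treatments.

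Nlrc5 is the transcriptional activator of MHC class I genes. It was at 13.8, 16.9 and 16.04 CPM in wild-type DMSO cultures and 35.2, 33.3 and 31.5 CPM after docetaxel. The knockout-labelled values were 1.82, 2.48 and 2.41 CPM and 9.66, 9.81 and 11.1 CPM. Its log2 interaction was 1.09 ± 0.18 (edgeR adjusted p = 0.0346), yet the rise in CPM was larger in wild-type cells, by 9.80 CPM, with the knockout-labelled level starting lower. Of the other MHC class I and antigen processing genes, such as Psmb9 (0.63 ± 0.44) and Tap1 (0.55 ± 0.28), none was called. That list of 23 tested genes had a median interaction of 0.17, with 1 member called by edgeR and 2 by DESeq2, and 1 negative at an unadjusted p under 0.05. The median was over 1.5 times lower without wild-type docetaxel library 1 (0.077), wild-type DMSO library 3 (0.10) or knockout-labelled docetaxel library 2 (0.11). It was 0.31 without knockout-labelled docetaxel library 1, 0.29 without wild-type docetaxel library 2 and 0.69 with the Gm23935 level as a covariate. Called members were 2 without wild-type DMSO library 1 (2.7% of all tested genes), 1 without 3 of the other libraries and 0 without the remaining 8.

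The interferon-inducible calls differed in how far they rested on single libraries. When 1 library was left out, the call was lost in 9 of 12 cases for Oas2 (edgeR adjusted p 0.056 to 0.175), 5 for Lgals9 (0.054 to 0.0846), 7 for Sp100 (0.0636 to 0.115) and 8 for Nlrc5 (0.0748 to 0.128). Wild-type docetaxel libraries 1 and 3, knockout-labelled DMSO libraries 1 and 3 and knockout-labelled docetaxel library 3 each ended all 4 calls. Wild-type DMSO library 2 and knockout-labelled DMSO library 2 ended those of Oas2, Sp100 and Nlrc5, wild-type docetaxel library 2 those of Oas2 and Nlrc5, and knockout-labelled docetaxel library 2 that of Oas2. The interactions themselves ran from 1.63 to 2.03 for Oas2, 1.39 to 1.74 for Lgals9, 1.10 to 1.34 for Sp100 and 0.96 to 1.17 for Nlrc5. Without wild-type DMSO library 1 all 4 were called, with edgeR adjusted p from 0.00208 to 0.00807.

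**Figure D1:**
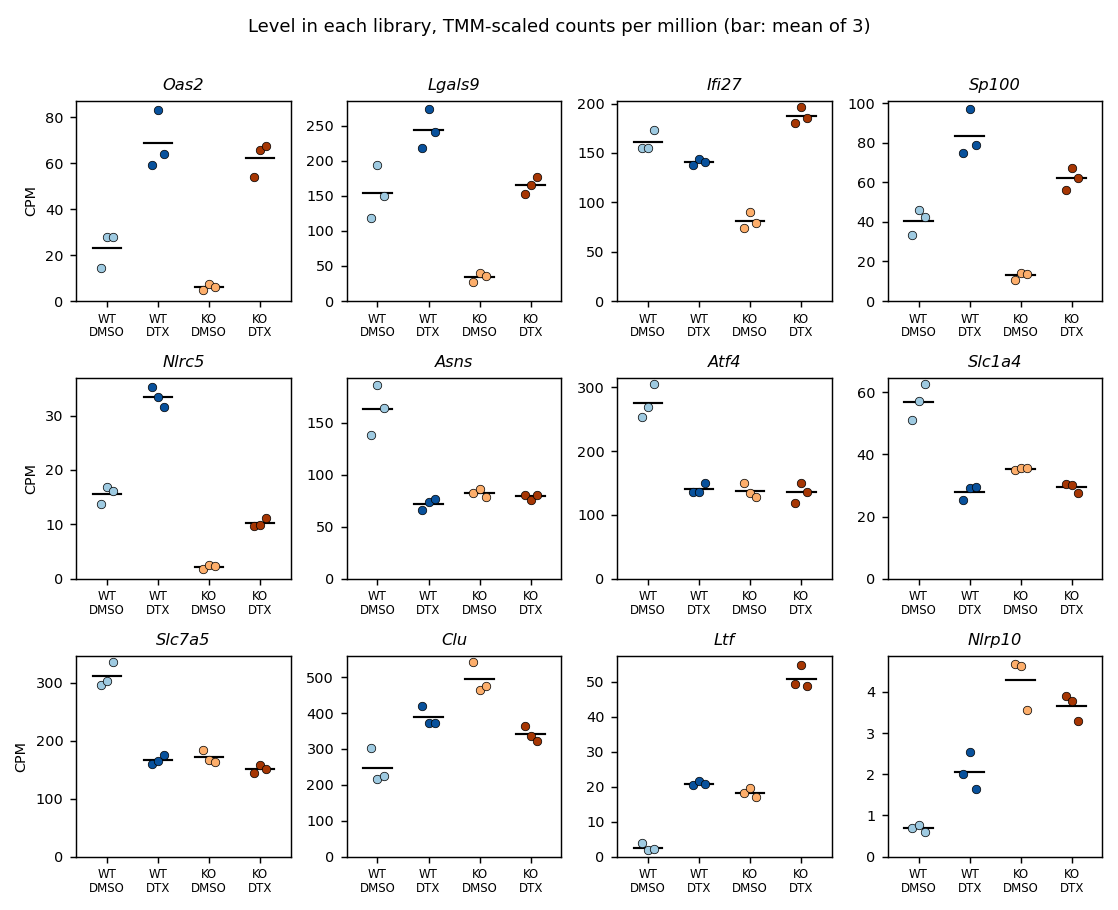
Level of 12 called genes in each of the 12 libraries, in TMM-scaled CPM on linear axes that start at 0. Points are libraries, bars are group means, and the groups are wild-type (WT) and knockout-labelled (KO) cells with DMSO or docetaxel (DTX). In the 5 interferon-inducible genes knockout-labelled DMSO cultures are lowest, and in the 4 ATF4-group genes wild-type DMSO cultures stand above the other 3 groups.

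The wider interferon program showed the same direction at most members, though few were called singly. Of 112 listed genes 104 were tested, and 3 of them (Oas2, Ifi27 and Sp100) were called, all positive. A further look at the unadjusted p found 61 members positive and 2 negative at p under 0.05, beside 6.11% and 4.92% of all genes. The interaction was above 0 at 93.3% of members (49.9% of all genes), with a median of 0.62. The median docetaxel change of the list was 0.70 log2 in wild-type cells, where 76 members rose and 4 fell, and 1.36 log2 in knockout-labelled cells, where 86 rose and 1 fell. Of all tested genes, 14.5% rose and 13.8% fell in wild-type cells, and 9.09% rose and 7% fell in knockout-labelled cells. The knockout-labelled cells were lower at 81 members in DMSO and at 15 after docetaxel (9.2% and 3.39% of all tested genes). The median genotype difference went from -0.94 to -0.31 log2. In these bulk cultures, fewer cells carrying a transcript and less transcript per cell cannot be told apart.

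By role, the 9 OAS-family members had the highest median interaction, 1.06, and 8 of the 9 had an unadjusted p under 0.05. The 15 interferon-induced GTPases, which attack membranes around pathogens, had a median of 0.83 with 11 at that level. The 6 IFIT proteins, which bind foreign RNA, had 0.66. Transcription factors of the pathway (8 genes) had 0.64, chemokines (4) 0.65, and ISG15-pathway genes (6) 0.50. RNA and DNA sensors (9 genes) had 0.35, feedback inhibitors (3) 0.24, and receptors and their kinases (7) 0.22. No test was made between roles.

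Several uncalled interferon genes show the pattern in single libraries. They are named after their values were seen. Ifi44 was at 69.1, 118 and 91.9 CPM and 194, 225 and 188 CPM in wild-type cells in DMSO and docetaxel. Its knockout-labelled values were 13.6, 24.6 and 22.5 CPM and 125, 124 and 134 CPM, an interaction of 1.53 ± 0.28 (edgeR adjusted p = 0.0528). Oas1a had 1.25 ± 0.24 (edgeR adjusted p = 0.0587) and Oas1g 1.17 ± 0.23 (0.071); the 2 are closely related genes between which reads may be shared. Irf7, a transcription factor of the pathway, had 1.07 ± 0.33 (0.3) and the RNA sensor Dhx58 1.29 ± 0.28 (0.121). The DNA sensor Cgas was at 19.6, 13.6 and 13.4 CPM and 23.2, 20.6 and 23.1 CPM in wild-type cultures and 16.5, 13.7 and 15.7 CPM and 21.7, 21.9 and 21.5 CPM in knockout-labelled ones. Its interaction was -0.019 ± 0.19 with a 95% interval of -0.42 to 0.39.

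A few members ran the other way. Ifitm1 had an interaction of -2.40 ± 0.56 (edgeR adjusted p = 0.143) at low levels, with group means from 0.17 CPM in wild-type DMSO cultures to 1.34 CPM in knockout-labelled ones. Epsti1, at 4.83, 5.13 and 6.52 CPM in wild-type DMSO cultures, stood below 1 CPM in all 6 knockout-labelled libraries and had -1.02 ± 0.37 (0.368). The ligand genes Ifnb1, Ifna4, Ifnl2, Ifnl3 and Ifng had too few counts to test, Ifnb1 with 48 counts over the 12 libraries.

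The scale matters for this list, in which knockout-labelled cells started lower. Measured as a difference in CPM rather than log2, 70 of 104 members (67.3%) gained more in knockout-labelled cells, against 97 on the log2 scale and 49.6% of all tested genes. All 9 OAS-family members kept the direction, while 2 of 6 IFIT genes, 2 of 6 ISG15-pathway genes and 0 of 4 chemokines did. Without wild-type DMSO library 1, 35 members were called (2.7% of all tested genes) and the list median was 0.72. Without any one of the other libraries between 1 (without wild-type DMSO library 2, for example) and 5 (without library 3 of the wild-type DMSO group, or library 1 of the knockout-labelled docetaxel group) were called, 1 of the former 5 with a negative value, and the median lay between 0.46 and 0.73.

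Promoter sequence was read for the interferon genes as a further property that played no part in the test. RefSeq start sites (GRCm38.p6) gave 1 or more windows of 300 bases, 250 before to 50 after the start, for 80 of the tested members. GAAA, any 2 bases and again GAAA, the core of the interferon-stimulated response element, was searched on both strands. At least 1 window held a match in 34 of these 80 genes (42.5%). Over all genes single windows were counted, with a match in 1131 of 32851 windows from 27025 genes (3.44%). The 2 shares are thus in unlike units. The list was drawn up as an interferon program, so a high share of matches can follow from that choice alone. It says nothing about the interaction. Members with a match had a median interaction of 0.63 and the 46 without one 0.43. Among called genes Lgals9 holds a match and Sp100 does not, and Oas2, Ifi27 and Nlrc5 have no window in the table. The 100 bases before the start site are shown for Lgals9 and for the 3 OAS genes with a match and a large interaction, chosen after their values were seen; capitals mark the matches, which overlap in Oas1a and Oas1g. Lgals9 lies at chr11:78984925-78985024, Oas1a at chr5:120907526-120907625, Oas1g at chr5:120887614-120887713 and Oas3 at chr5:120777660-120777759, all on the minus strand.
Lgals9: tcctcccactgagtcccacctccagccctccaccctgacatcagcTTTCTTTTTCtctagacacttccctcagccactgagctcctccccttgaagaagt
Oas1a: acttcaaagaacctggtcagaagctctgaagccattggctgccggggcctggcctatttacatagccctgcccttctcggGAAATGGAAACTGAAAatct
Oas1g: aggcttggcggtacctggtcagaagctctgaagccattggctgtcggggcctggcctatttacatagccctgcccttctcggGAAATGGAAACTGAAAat
Oas3: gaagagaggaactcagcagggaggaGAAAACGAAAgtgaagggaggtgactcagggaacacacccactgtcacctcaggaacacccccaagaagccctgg

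The second group of positive interactions came from the ATF4 and amino acid genes, which fell after docetaxel in wild-type cells and started low in knockout-labelled cells. Asns encodes asparagine synthetase. It was at 138, 187 and 165 CPM in wild-type DMSO cultures and 66.5, 73.4 and 76.6 CPM after docetaxel. In knockout-labelled cultures it was at 81.98, 86.1 and 78.7 CPM in DMSO and 80.7, 75.7 and 80.9 CPM after docetaxel. The wild-type DMSO libraries alone stood apart, and the 9 libraries of the 3 other groups lay between 66.5 and 86.1 CPM. The interaction was 1.12 ± 0.14 (edgeR adjusted p = 0.00856), from -1.18 log2 in the former and -0.056 log2 in the latter genotype.

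Atf4 itself, the transcription factor that induces Asns, had 253, 269.6 and 305 CPM in wild-type DMSO cultures and 135, 136 and 149.6 CPM after docetaxel. Knockout-labelled cultures had 150.5, 134 and 127 CPM and 119.5, 150.4 and 136 CPM, overlapping each other and the docetaxel-treated wild-type cultures. The interaction was 0.96 ± 0.14 (edgeR adjusted p = 0.022). This is the level of the transcript, and ATF4 is known to be controlled largely at translation, which was not measured.

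The 2 called transporters had the same arrangement. Slc7a5, the light chain of the leucine transporter LAT1, was at 296, 304 and 337 CPM and 159.9, 164 and 176 CPM in wild-type cells in DMSO and docetaxel. It was at 185, 167 and 163 CPM and 144, 158 and 151 CPM in knockout-labelled cells, an interaction of 0.72 ± 0.12 (edgeR adjusted p = 0.0285). Slc1a4, a transporter of alanine, serine and cysteine that was not on the list, went from 51.1, 56.98 and 62.6 CPM to 25.5, 29.02 and 29.5 CPM in wild-type cells. Its knockout-labelled values were 34.9, 35.6 and 35.6 CPM and 30.4, 30.2 and 27.7 CPM, an interaction of 0.76 ± 0.13 (0.0458). In both, wild-type DMSO cultures were above the other 9 libraries.

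Of 39 listed ATF4 and amino acid genes 38 were tested, and 3 were called (Asns, Atf4 and Slc7a5), all positive. At an unadjusted p under 0.05, 24 members were positive and 0 negative (6.11% and 4.92% of all tested genes). The interaction was above 0 at 94.7% of members (49.9% of all tested genes), with a median of 0.52. In wild-type cells 27 members fell and 1 rose after docetaxel (median -0.63 log2), while in knockout-labelled cells 2 fell and 2 rose (median -0.038). Of all tested genes, 13.8% fell and 14.5% rose in wild-type cells, and 7% fell and 9.09% rose in knockout-labelled cells. Knockout-labelled cells were lower at 25 members in DMSO and at 0 after docetaxel (9.2% and 3.39% of all tested genes). The median genotype difference after docetaxel was -0.062 log2. On the CPM scale 36 of 38 members were positive, the same number as on the log2 scale.

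Uncalled members, named after their values were seen, included enzymes and signalling factors. The mitochondrial folate enzyme Mthfd2 had 0.74 ± 0.13 (edgeR adjusted p = 0.0525), the alanine aminotransferase Gpt2 1.11 ± 0.20 (0.0528), and Trib3, a pseudokinase that restrains ATF4, 1.2002 ± 0.27 (0.141). Atf5 was at 32.4, 51.9 and 107 CPM in wild-type DMSO cultures and 12.3, 15.8 and 11.8 CPM in knockout-labelled ones, and its interaction of 1.77 ± 0.46 (0.2) came with a large SE, library 3 of the former being the highest. The pro-apoptotic factor Ddit3 was also highest in that library, at 15.99, 21.3 and 48.3 CPM, with 1.49 ± 0.44 (0.285). Not every target had a sizeable interaction, since Phgdh, the first enzyme of serine synthesis, had 0.051 ± 0.17 (95% interval -0.32 to 0.42) and Cebpb -0.076 ± 0.34 (-0.81 to 0.65).

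When 1 library was left out, Asns lost its call without knockout-labelled DMSO library 3 or docetaxel library 3 (edgeR adjusted p 0.0504 to 0.0645). Atf4 lost it in 6 of 12 cases (0.0558 to 0.107), Slc7a5 in 7 (0.054 to 0.137) and Slc1a4 in 10 (0.056 to 0.175). Each wild-type docetaxel library, knockout-labelled DMSO libraries 2 and 3 and knockout-labelled docetaxel library 3 ended all of the last 3 calls, knockout-labelled DMSO library 1 those of Slc7a5 and Slc1a4, and that of Slc1a4 also ended without library 2 of the wild-type DMSO group or libraries 1 and 2 of the knockout-labelled docetaxel group. Interactions stayed within 1.01 to 1.23 for Asns, 0.88 to 1.04 for Atf4, 0.67 to 0.77 for Slc7a5 and 0.69 to 0.83 for Slc1a4. Without wild-type DMSO library 1 the list had 16 called members (2.7% of all tested genes were called) and a median of 0.55. Without any one of the other libraries the list had 0 (without knockout-labelled DMSO library 3 or docetaxel library 3) to 5 called members.

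The letters TGATGNAAN, a core of the amino acid response element that ATF4 binds with C/EBP partners, were chosen after the values were seen and searched in the same RefSeq windows on both strands. They occurred in at least 1 window of 13 of the 33 list genes with a window (39.4%). Counted by single windows over all genes, they occurred in 1299 of 32851 (3.95%), again an unlike unit. The list was drawn up as ATF4 and amino acid genes, so here too a high share can follow from that choice alone. Members with a match had a median interaction of 0.77 and the 20 without one 0.58. Asns (chr6:7693210-7693309, minus strand, the 100 bases before its start) and Slc1a4 hold a match. Of the other called genes of this group, Atf4 does not, and Slc7a5 has no window in the table. The sequence of Asns is shown with that of the negative gene Ltf (chr9:111019192-111019291, plus strand), which holds neither motif.
Asns: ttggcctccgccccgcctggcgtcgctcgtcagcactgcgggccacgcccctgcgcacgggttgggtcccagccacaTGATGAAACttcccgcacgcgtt
Ltf: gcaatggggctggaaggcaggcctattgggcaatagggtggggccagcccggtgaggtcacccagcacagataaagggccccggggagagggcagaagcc

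**Figure D2:**
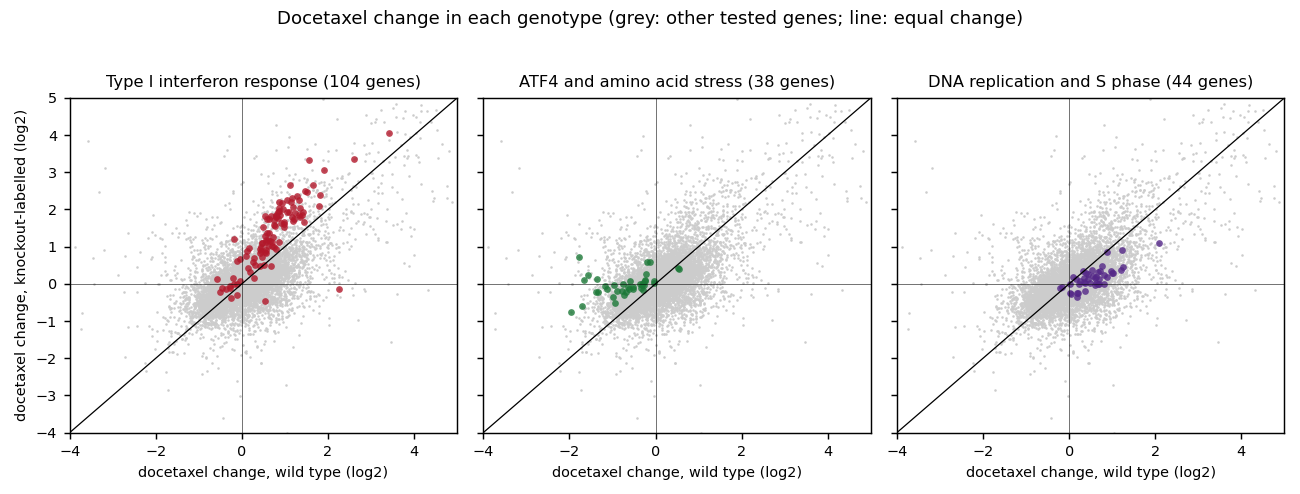
Docetaxel change (log2) of each tested gene in wild-type cells (x axis) and knockout-labelled cells (y axis), with 1 gene list coloured in each panel, all other tested genes in grey and the line of equal change. Of the 104 interferon genes 97 lie above the line, as do 36 of 38 ATF4-group genes, while 40 of 44 DNA replication genes lie below it.

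The 3 negative interactions belonged to 2 secreted proteins and 1 cytosolic protein. Clu, the extracellular chaperone clusterin, was at 301, 215 and 225 CPM in wild-type DMSO cultures and 419, 372 and 372 CPM after docetaxel. It stood at 542, 463 and 476 CPM in knockout-labelled DMSO cultures and 363, 337 and 322 CPM after docetaxel. Wild-type cultures rose (0.65 log2) and knockout-labelled cultures fell (-0.54 log2), without overlap between treatments in either genotype. The interaction was -1.19 ± 0.17 (edgeR adjusted p = 0.0165), and Clu was the only one of the 17 genes that rose under one genotype label, the wild type, and fell under the other.

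Ltf encodes lactoferrin, an iron-binding milk and neutrophil protein. In wild-type cultures it was at 3.79, 1.79 and 2.06 CPM in DMSO and 20.3, 21.6 and 20.7 CPM after docetaxel. In knockout-labelled cultures it was at 18.1, 19.6 and 16.9 CPM and 49.3, 54.7 and 48.7 CPM. It rose in both, by 3.04 and 1.48 log2, and the interaction was -1.55 ± 0.25 (edgeR adjusted p = 0.0285). In CPM the rise was larger in knockout-labelled cells, by 14.4 CPM, the opposite direction.

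Nlrp10, a member of the NLR family, was called at low levels and fell under the 5 CPM set for naming, so it is named after its value was seen. Its levels were 0.695, 0.757 and 0.608 CPM and 2.005, 2.53 and 1.65 CPM in wild-type cultures. They were 4.67, 4.62 and 3.55 CPM and 3.905, 3.77 and 3.303 CPM in knockout-labelled cultures, whose treatments overlapped. The interaction was -1.80 ± 0.30 (edgeR adjusted p = 0.0376). Leaving out 1 library ended the call of Nlrp10 in 10 of 12 cases (all but wild-type DMSO libraries 1 and 3, adjusted p 0.0511 to 0.13), that of Ltf in 7 (each wild-type docetaxel and knockout-labelled DMSO library and knockout-labelled docetaxel library 3, 0.0815 to 0.113) and that of Clu in 5 (wild-type docetaxel libraries 1 and 3, knockout-labelled DMSO libraries 1 and 3 and docetaxel library 3, 0.0558 to 0.0846). Interactions then lay within -1.35 to -1.09 for Clu, -1.95 to -1.35 for Ltf and -1.93 to -1.63 for Nlrp10.

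The highest interactions among the called genes belonged to 4 short features that the GENCODE M21 annotation (GRCm38) lists as miRNA genes. Which RNA the counted reads came from was not tested. The sequences of the features are shown because 3 of the 4 are identical. Gm23935 (chr16:11144125-11144181, plus strand), Gm24270 (chr9:56223715-56223771, minus strand) and Gm24245 (chr4:139338304-139338360, plus strand) share 1 sequence of 57 bases. Gm25911 (chr1:167340369-167340424, minus strand) has 56 bases and differs by 1 substitution and 1 missing base. Capitals mark the substituted base and the bases at the missing position.
Gm23935, Gm24270 and Gm24245: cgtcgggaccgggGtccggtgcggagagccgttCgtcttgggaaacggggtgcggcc
Gm25911: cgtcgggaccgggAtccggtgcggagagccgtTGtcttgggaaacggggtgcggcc

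Reads that lie within the 57 bases shared by the 3 identical features cannot be assigned to 1 of them by sequence, and the rule by which such reads were counted is unknown (not given in the sources used here). Gm23935 took 1.62%, 3.98% and 0.435% of all counts in wild-type DMSO libraries and 0.22%, 0.217% and 0.192% after docetaxel. It took 0.152%, 0.137% and 0.177% in knockout-labelled DMSO libraries and 0.856%, 0.293% and 1.51% after docetaxel. Wild-type DMSO and knockout-labelled docetaxel libraries were high and also spread widely, and the 2 other groups were low and tight. The interaction of Gm23935 was 5.79 ± 0.87 (edgeR adjusted p = 0.022), that of Gm24270 6.29 ± 0.78 (0.00856), that of Gm25911 7.42 ± 1.05 (0.0165) and that of Gm24245 2.75 ± 0.43 (0.0285). The last 3 are named after their values were seen.

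Ppp1r14a, which encodes an inhibitor of myosin phosphatase, had the same order of group means. Its level was 73.8, 124 and 48.7 CPM in wild-type DMSO cultures and 29.3, 21.998 and 45.2 CPM after docetaxel. In knockout-labelled cultures it was 21.1, 30.1 and 28.2 CPM and 80.8, 40.8 and 81.5 CPM. The interaction was 2.70 ± 0.48, with an edgeR adjusted p of 0.049984. The call was lost with limma-voom (adjusted p = 0.0812), upper-quartile scaling (0.0561), repeated entries kept (0.0501), a filter of 1 CPM (0.0543) or protein-coding genes alone (0.057), and with the replicate block (0.0569). Over the 12 libraries, the deviations of Ppp1r14a from its group means correlated with those of Gm23935 at r = 0.766, and those of Gm24270, Gm25911 and Gm24245 at 0.845, 0.895 and 0.936. For the other 12 called genes this r lay between -0.549 and 0.314. These libraries share depth and scaling. The part of the Gm23935 share in the other results was not tested, and the values that follow do not decide it.

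Without the 2 libraries richest in Gm23935, namely library 2 of the wild-type DMSO group and library 3 of the knockout-labelled docetaxel group, 4 genes were called (0.0252%): Ifi27 (1.44), Asns (1.00), Gm23935 (4.17) and Gm24270 (5.06). With the Gm23935 level as a covariate, Ifi27 alone was called (1.67, edgeR adjusted p = 0.0128). Ppp1r14a dropped to 0.44 and Gm25911 to 0.93, while the list medians were 0.59 for interferon and 0.90 for ATF4 genes. Gm23935 is itself a called interaction gene, so this covariate overlaps the contrast under test. A lost call or a smaller value in that fit cannot show what part Gm23935 had. Leaving out 1 library ended no call of Gm24270, but 7 of 12 each for Gm23935, Gm24245 and Gm25911 (each wild-type docetaxel and knockout-labelled DMSO library and knockout-labelled docetaxel library 3) and 9 for Ppp1r14a (those 7, library 2 of the wild-type DMSO group and library 1 of the knockout-labelled docetaxel group), with edgeR adjusted p up to 0.1751.

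**Figure D3:**
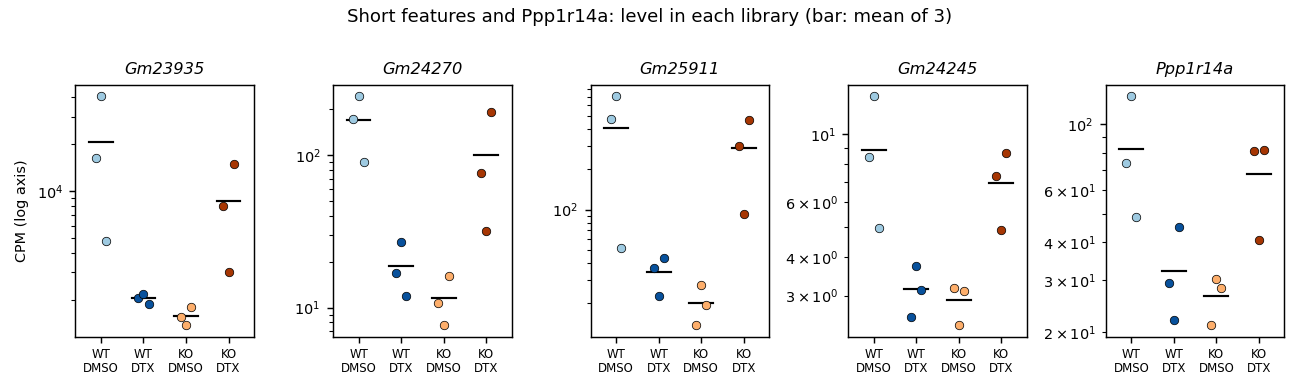
Level of the 4 short features and Ppp1r14a in each library, in TMM-scaled CPM on log axes, with points for libraries and bars for group means. Wild-type DMSO and knockout-labelled docetaxel libraries are high and scattered, and the 2 other groups have lower means in each panel.

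No member of the DNA replication and S phase list was called by edgeR or limma-voom, and DESeq2 called 1 of the 44. At an unadjusted p under 0.05, 15 members were negative and 0 positive (4.92% and 6.11% of all tested genes). The median interaction was -0.36, with 9.09% of values above 0 (49.9% for all tested genes). Docetaxel raised 29 members in wild-type cells (median 0.55 log2) and 4 in knockout-labelled cells (median 0.14). Of all tested genes it raised 14.5% and 9.09%, so the count in knockout-labelled cells was no higher than that share. Ccne1, which encodes cyclin E1, was at 3.48, 2.13 and 2.499 CPM and 12.4, 11.01 and 10.8 CPM in wild-type cultures in DMSO and docetaxel. It was at 6.36, 4.95 and 5.05 CPM and 13.04, 10.2 and 11.5 CPM in knockout-labelled ones, an interaction of -0.99 ± 0.24 (edgeR adjusted p = 0.178). Rrm2, a subunit of ribonucleotide reductase, was at 85.8, 48.8 and 36.9 CPM in wild-type DMSO cultures, with library 1 within the range of the knockout-labelled values of 119, 84.5 and 91.9 CPM. Without that library 21 members of the list were called (2.7% of all tested genes) and its median was -0.65.

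Cholesterol synthesis genes gave a similar picture. None of 29 was called by edgeR, limma-voom or DESeq2. At an unadjusted p under 0.05 there were 11 negative and 0 positive members (4.92% and 6.11% of all tested genes), and the median was -0.33. Without wild-type DMSO library 1, 9 members were called (2.7% of all tested genes) and the median was -0.49. Without wild-type DMSO library 3 the median was -0.23.

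Myc and ribosome biogenesis genes (32 tested) had a median of -0.32, with 0 called by edgeR and 1 by DESeq2. At an unadjusted p under 0.05, 6 were negative (4.92% of all tested genes). Without wild-type DMSO library 1, 6 were called (2.7% of all tested genes), with a median of -0.44. Without wild-type DMSO library 2 the median was -0.19. Among 12 tubulin genes, the proteins that docetaxel acts on, the median was -0.42 with 0 called by edgeR or limma-voom and 2 by DESeq2. At an unadjusted p under 0.05, 6 tubulins were negative (4.92% of all tested genes). With wild-type DMSO library 1 left out, edgeR called 4 tubulins (2.7% of all tested genes), all negative (Tuba1a, Tuba4a, Tubb4b and Tubb6). The median was then -0.55. The median was -0.27 without wild-type DMSO library 3. Tubb6, a beta-tubulin, was at 140.4, 108 and 103 CPM and 270.25, 266 and 294 CPM in wild-type cultures, and 188, 139 and 162 CPM and 222, 262 and 246 CPM in knockout-labelled ones, with -0.66 ± 0.18 (edgeR adjusted p = 0.229). Tubb4b had -0.65 ± 0.17 (0.184) and Tuba1a -0.61 ± 0.18 (0.285). The 15 microtubule regulators had a median of 0.021. The uncalled genes in these lists are named after their values were seen.

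Other lists had median interactions nearer 0. Of 42 NF-kB targets, cytokines and chemokines, 34 rose in wild-type cells and 30 in the knockout-labelled (14.5% and 9.09% of all tested genes rose). They had 0 interactions called by edgeR or DESeq2 and a median interaction of 0.16. At an unadjusted p under 0.05, 5 were positive and 2 negative (6.11% and 4.92% of all tested genes). The median interaction was 0.059 without wild-type DMSO library 3, 0.085 without wild-type docetaxel library 1, 0.095 without wild-type DMSO library 2 and 0.10 without knockout-labelled DMSO library 1. Replication-dependent histones fell at 26 of 39 members in wild-type cells and at 26 in the knockout-labelled (13.8% and 7% of all tested genes fell), with a median interaction of 0.0044. Glycolysis and hypoxia genes fell at 25 of 34 and 26, with a median of -0.077. Of 44 mitosis and spindle checkpoint genes 8 rose and 2 fell in wild-type cells and 2 and 0 in the knockout-labelled, and their median interaction was -0.018. Of 24 p53 targets 4 rose and 5 fell in wild-type cells and 8 and 1 in the knockout-labelled, with a median interaction of 0.092, or 0.031 without knockout-labelled docetaxel library 2. The medians of the histone, glycolysis and mitosis lists took both signs when single libraries were left out. Among these last 4 lists edgeR and DESeq2 called 0 interactions, with 9 positive and 7 negative members at an unadjusted p under 0.05. When wild-type DMSO library 1 was left out, edgeR called 4 p53 targets, 2 histones, 1 glycolysis gene, 1 mitosis gene and 2 NF-kB members. In that setting 2.7% of all tested genes were called, and the glycolysis and mitosis counts lay near that share. A lack of calls at 3 libraries per group does not show equal responses.

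Integrin and focal adhesion genes (42 tested) had a median of 0.0099, with 0 called by edgeR and 1 by DESeq2. At an unadjusted p under 0.05, 3 were positive and 4 negative (6.11% and 4.92% of all tested genes). EdgeR called 2 members without wild-type DMSO library 1, where it called 2.7% of all tested genes. Itgb3 had an interaction of -0.39 ± 0.12 (95% interval -0.64 to -0.14, edgeR adjusted p = 0.294), with the wild-type docetaxel cultures highest and apart from the other 9 libraries. Itgav, the alpha v partner, had 0.30 ± 0.12 (0.403). Itga2b, the alpha IIb partner, had -0.16 ± 0.53 (0.934) with too wide an error for a direction.

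**Figure D4:**
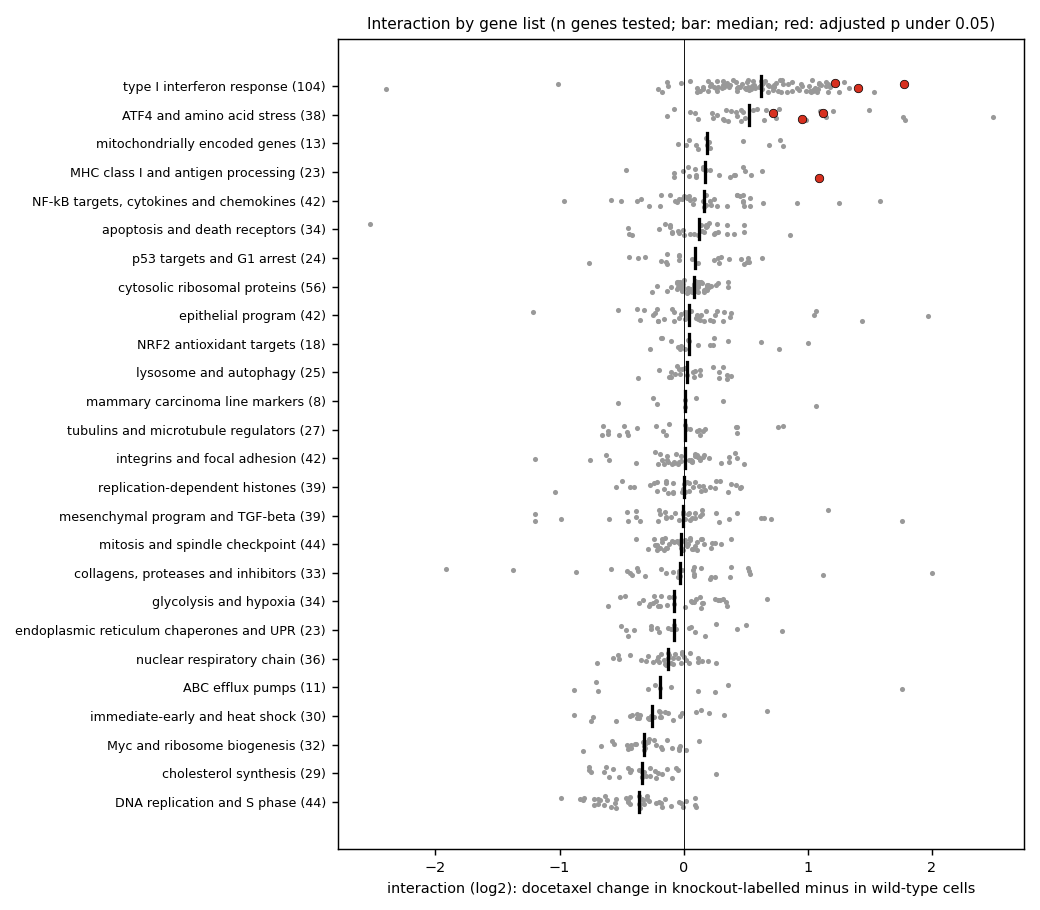
Interaction (log2) of each tested member of 26 gene lists, ordered by list median, with black bars for medians and red points for genes with an adjusted p under 0.05. The interferon and ATF4 lists have the highest medians, 0.62 and 0.52, and the DNA replication list the lowest, -0.36.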

How the data were processed

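RNA from 12 cultures of 4T1 cells was depleted of ribosomal RNA and sequenced as paired-end reads, per the labels' protocols. The authors deposited whole-number counts per gene symbol, and the submitters' processing notes name bcl2fastq, STAR 2.5.1a and Subread featureCounts 1.4.6-p5. Genome build, annotation and strand setting are unknown (not given in the sources used here). Of 40757 deposited rows, 351 repeated another in symbol and all counts (0.907% of counts) and were dropped, and 82 rows still share a symbol. The rows left carried 40324 different symbols, and all of these matched GENCODE M21.

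The deposited counts were scaled by TMM, filtered with filterByExpr and fitted with 1 mean per group in edgeR 4.0.16 (R 4.3.3, quasi-likelihood test, two-sided, Benjamini-Hochberg over 15538 genes, threshold 0.05). P-values measure the spread between 3 cultures per group, so their number limits the precision. DESeq2 1.42.0 and limma 3.58.1 were alternatives. The fit was tested on simulated data. Replicates differed by more than sampling noise.

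Named genes are Itgb3, Itgav, Itga2b, Gm23935, the 15 largest called interactions in each direction of protein-coding genes with a highest group mean of at least 5 CPM, and up to 4 called members per list or interferon role. Members and lists were chosen with earlier results of these data known. Lists were described by counts and medians, without tests. Values of some single genes are not reported here.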

Additional observations from a re-analysis of the deposited data

Results flagged for a closer look

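A test of the difference between genotypes singled out 17 genes whose docetaxel response differed (edgeR quasi-likelihood, adjusted p under 0.05). Higher in knockout-labelled cells were the features Gm25911 (interaction 7.42 log2), Gm24270 (6.29), Gm23935 (5.79) and Gm24245 (2.75), and Ppp1r14a (2.70). Also higher were the interferon-inducible genes Oas2 (1.78), Lgals9 (1.59), Ifi27 (1.4026), Sp100 (1.22) and Nlrc5 (1.09), and the amino acid genes Asns (1.12), Atf4 (0.96), Slc1a4 (0.76) and Slc7a5 (0.72). Lower were Clu (-1.19), Ltf (-1.55) and Nlrp10 (-1.80).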

How the results depend on the processing

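All 17 called genes kept their sign under each of 25 alternatives in which they were tested, and Ifi27 kept its call in all 25. Their number (17, of which 14 were higher and 3 lower in knockout-labelled cells) became 154 (118 and 36) with DESeq2, 8 (6 and 2) with limma-voom, 421 (257 and 164) with no filter on low counts, 42 (37 and 5) with a GC correction, 4 (4 and 0) without the 2 libraries richest in Gm23935 and 1 (1 and 0) with Gm23935 as a covariate. Without the filter a test had a median of 227000 degrees of freedom, against 14.1 with it, so that fit took almost nothing from the spread of single genes. Among protein-coding genes alone 9 were higher. Leaving out 1 library gave 2 to 431 calls, 2 to 210 higher and 0 to 221 lower. Called interferon genes (3) became 28, 1, 53, 8, 1 and 1 under the same 6 alternatives, and 1 to 35 with 1 library left out. Called ATF4 genes (3) became 15 with DESeq2, 16 without the filter, 10 with the GC correction, 1 and 0 for the 2 Gm23935 alternatives, 6 with RLE scaling, 1 when a 2-fold change was also asked, and 0 to 16 with 1 library left out. The cause of these shifts was not tested.

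Replicate numbers paired the libraries weakly at most. Of 18 same-numbered pairs 14 had a positive r and 4 correlated above 0.1 (range -0.272 to 0.346). Of 12 libraries 6 correlated best with their own number. With the replicate block 48 genes were called (41 higher, 7 lower), 22 of them interferon and 7 ATF4 genes. With block and GC correction there were 121 (102 and 19), 39 and 13. Ppp1r14a lost its call in both (adjusted p 0.0569 and 0.0521), and the other 16 genes kept theirs.

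Itgav reversed to -0.019 with Gm23935 as a covariate. Itga2b reversed to 0.11 without the 2 richest libraries, 1.71 with the covariate, and 0.0075, 0.055 and 0.18 without library 1 or 2 of the wild-type DMSO group or library 1 of the knockout-labelled docetaxel group, over a range of -0.66 to 0.18 with 1 library left out. Of 495 alternative values of single genes 338 kept sign and call, 151 lost the call and 6 reversed. Another scaling moved the median of all genes by under 0.1. The comparison of positive members in CPM was added after seeing the data. At these depths the smallest called interaction was 0.72 (Slc7a5).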

Other observations

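Just past the threshold, 23 genes had an edgeR adjusted p between 0.05 and 0.1, so that 40 genes (0.257%) lay under 0.1, and 22 of the 23 were positive. The interferon list held 4 of them (Ifi44, Oas1a, Oas1g and Rtp4) and the ATF4 list 4 (Mthfd2, Gpt2, Psat1 and Slc3a2). Slc3a2 encodes the heavy chain that pairs with Slc7a5 in the LAT1 transporter. It was at 161, 185 and 206 CPM in wild-type DMSO cultures and 119, 125 and 123.3 CPM after docetaxel, and at 112, 109 and 102 CPM and 109, 118 and 113 CPM in knockout-labelled ones. Its interaction was 0.66 ± 0.12 (edgeR adjusted p = 0.058), so both chains of the transporter had their highest level in wild-type DMSO cultures. Herpud1, a membrane protein of the endoplasmic reticulum, had 0.79 ± 0.14 (0.0529). F13a1, a chain of coagulation factor XIII, was the single negative gene, at -1.09 (0.0774).

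Among the same 23 genes, 8 followed the Gm23935 level within groups with r above 0.7 over 12 libraries. The noncoding Gm24187, Gm14236 and Mir6538 had 0.926, 0.888 and 0.851, and the 5 protein-coding genes Ankrd60, Adh7, Gm4070, Pnck and Hdgfl3 had 0.863, 0.806, 0.799, 0.79 and 0.71. Psat1, of the ATF4 list, had 0.631. The largest fitted interaction of the 23, 8.12, belonged to Chst7, which had 0 counts in all 3 knockout-labelled DMSO libraries and at most 18 in any library, so that its size depends on the prior count. These correlations share depth and scaling and are given as a description.

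Heat shock genes had a median interaction of -0.22, and 0 of 12 were above 0, with 0 called by edgeR and 1 negative at an unadjusted p under 0.05. The mitochondrially encoded genes had a median of 0.19, which turned to -0.017 without wild-type DMSO library 2, -0.032 without the 2 libraries richest in Gm23935 and -1.10 with the Gm23935 covariate. With 1 library left out it reached 0.46 (without wild-type docetaxel library 1). The nuclear genes of the respiratory chain had a median of -0.12. Without wild-type DMSO library 1 edgeR called 1 of these 36, near the 2.7% of all tested genes called there. With all libraries neither list had a called member in edgeR, limma-voom or DESeq2, and at an unadjusted p under 0.05 they had 0 and 0 positive and 0 and 5 negative members.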
